A study of Mus musculus with 6 samples.

Results

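Mouse macrophages treated with IL4 and the compound PF429424 were compared with macrophages treated with IL4 alone. The comparison uses 2 of the 6 RNA sequencing libraries of the series, and it covers the 11908 genes, of 16775 in the deposited tables, that reached a CPM of at least 1 in at least 1 of the 6 libraries. CPM is the count of a gene scaled to the size of its library, here with TMM factors. All cells were bone-marrow-derived macrophages from C57BL/6 mice, cultured for 5 days with M-CSF at 10 ng/ml, which makes marrow cells differentiate into macrophages. In the PF429424 library the cells then had IL4 and PF429424 for 24 hours, and in the other library IL4 without a compound for 24 hours. The labels name no genetic change in any of the cells. IL4, a cytokine of allergic responses that pushes macrophages into the alternatively activated state, was present in all 6 libraries, and the part of IL4 itself in any level cannot be read from them. The other 4 libraries received IL4 with fatostatin, betulin, 25-HC or 1,10-Phen and are used here only to place the PF429424 library. The labels give neither the dose nor the molecular target of PF429424, and none is assumed. The series asks about SREBP2, the factor that switches on cholesterol synthesis, in this activated state and in allergic inflammation of the airways, so genes of both are described.

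Each treatment has 1 library, so no difference below has a replicate check, no test between treatments was possible and no p-value is given. The PF429424 library held 21010404 counts and the IL4 library 20181425, and the 6 libraries lay between 20181425 and 21169705. Each ratio below is a log2 ratio of PF429424 over IL4 with a prior count of 2, and its exact 95% interval covers counting error only, not variation between cultures. A gene is called higher or lower when that ratio is at least 1 in size and the interval excludes no change. Macrophage markers were present in both libraries, among them Lyz2, lysozyme, at 5246 CPM with PF429424 and 4520.5 CPM with IL4, and Cd68 at 2287 CPM with PF429424 and 1736 CPM with IL4. In bulk RNA, fewer cells of a type and less RNA per cell cannot be told apart.

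Several stress and sterol pathways frame what follows, and they are given here as background. ATF4 is a transcription factor that is translated when cells lack amino acids or when the endoplasmic reticulum (ER) is stressed, and it switches on genes that make, import and load amino acids onto tRNA. ATF6 is held in the ER membrane and, like the SREBP factors that switch on sterol and fatty acid synthesis, is released by the proteases encoded by Mbtps1 and Mbtps2. Released ATF6 switches on chaperones of the ER. LXR factors respond to oxidised sterols and switch on cholesterol export.

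Of the 11908 genes, 298 (2.50%) were called higher with PF429424 and 667 (5.60%) were called lower, so 965 (8.10%) were called in either direction. The shares of 2.50% and 5.60% are the background for the called counts of every list below. The median log2 ratio over all genes was 0.02, and 90% of all genes lie between the 5th percentile of -1.07 and the 95th percentile of 0.74. A 4-fold difference was reached by 45 of the genes called higher and 123 of those called lower. When the libraries were scaled by their totals in place of TMM factors, 216 genes were called higher and 871 lower, and the median over all genes was -0.11. The IL4 library was the highest of the 6 libraries for 439 of the 667 genes called lower, and the lowest of the 6 for 177 of the 298 called higher. Over all genes the IL4 library was the highest of the 6 for 17.3% and the lowest for 17.7%. The calls are made from the IL4 level itself, so a larger share among called genes is favoured by the rule. The largest ratios among well-counted named genes belonged to Chac1, Rbp4, Efcc1, Bex1 and Trib3 on the higher side and to Retnla, Scn3a, Ccl24, Hpgd and Cd300lg on the lower side.

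**Figure D1:**
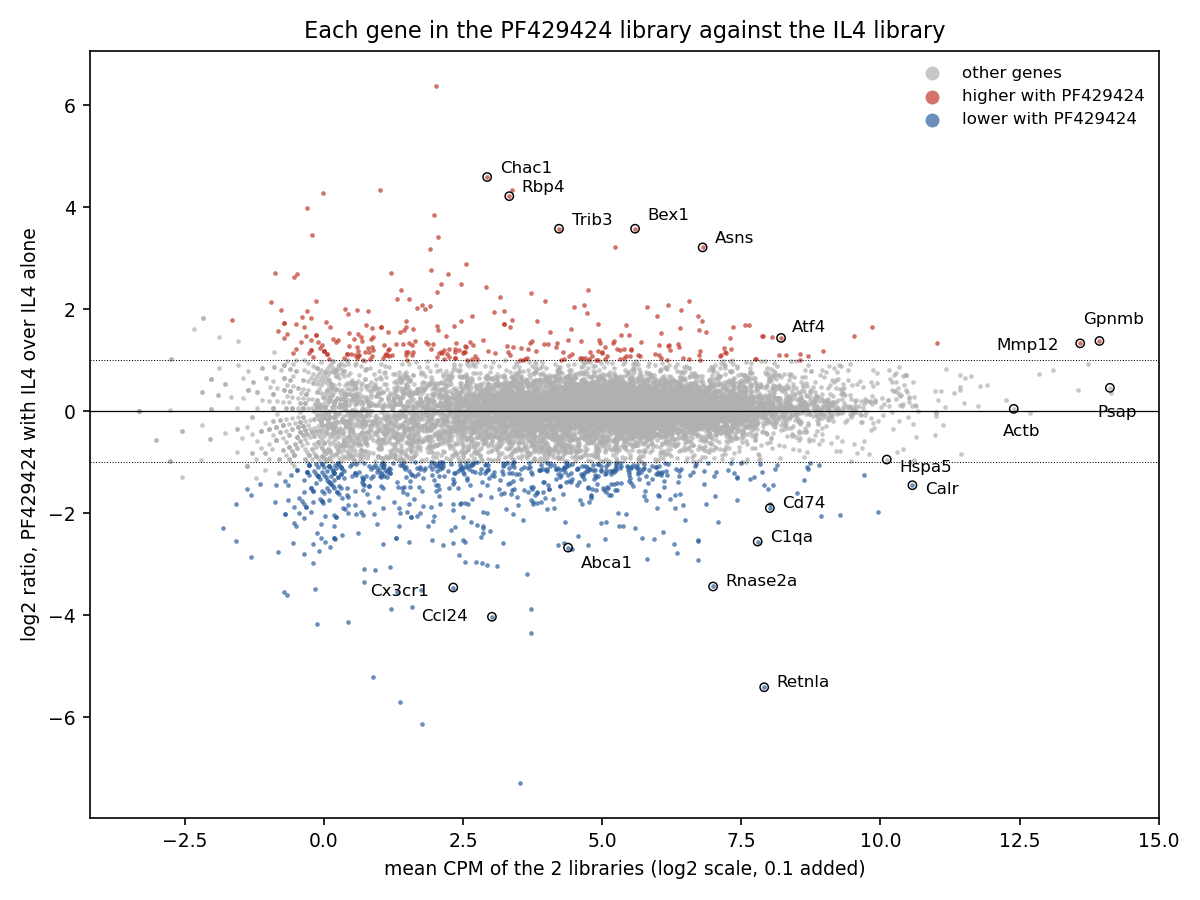
Log2 ratio of each of the 11908 genes, PF429424 with IL4 over IL4 alone, against its mean CPM in the 2 libraries on a log2 scale; each point is a gene, dotted lines mark a 2-fold difference, and circled genes are named in the text. The 298 genes called higher (red) include the ATF4 targets Chac1, Trib3 and Asns, the 667 called lower (blue) include Retnla and Ccl24, and Actb lies near 0.

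Many genes of the ATF4 stress response were higher in the PF429424 library. Of 24 genes compared, 10 were called higher and 0 lower, 21 had a ratio above 0, and the median was 0.91, beside 2.50% called higher, 5.60% called lower and a median of 0.02 over all genes. Chac1, an enzyme that breaks down glutathione, had 296 counts with PF429424 and 11 with IL4, a log2 ratio of 4.59 (3.97 to 5.85). Trib3, a pseudokinase induced by amino acid shortage, had 699 counts with PF429424 and 60 with IL4 (log2 ratio 3.58). Asns, which makes asparagine from aspartate, had 4101 counts with PF429424 and 466 with IL4 (log2 ratio 3.21, 3.08 to 3.36). Asns was at 202 CPM with PF429424, 25.1 with fatostatin, 45.0 with betulin, 116 with 25-HC, 183 with 1,10-Phen and 21.7 with IL4 alone. The PF429424 library was the highest of the 6 for Asns, by a log2 ratio of 0.14 over 1,10-Phen, and 25-HC and 1,10-Phen were also far above IL4. Bcat1, which transfers the amino group of branched-chain amino acids, was at 9.30 CPM with PF429424, between 1.93 and 3.56 CPM with the other compounds, and at 1.58 CPM with IL4.

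The transcription factors Atf4, Atf5 and Ddit3 were also called higher, whereas Atf3 (log2 ratio 0.61), Cebpb (log2 ratio 0.42), Cebpg (log2 ratio 0.24), Jdp2 (log2 ratio 0.34) and Nupr1 (log2 ratio 0.75) of the same list were not called. Atf4 itself had 8813 counts with PF429424 and 3443 with IL4 (log2 ratio 1.44), its relative Atf5 had 3492 with PF429424 and 1076 with IL4 (log2 ratio 1.78), and Ddit3, which encodes the stress factor CHOP, had 937 with PF429424 and 469 with IL4 (log2 ratio 1.08). Atf4 was at 434 CPM with PF429424, 453 CPM with 25-HC and 545 CPM with 1,10-Phen, and IL4 alone was the lowest of the 6 at 160.3 CPM. Pck2, the mitochondrial enzyme that makes phosphoenolpyruvate, had 1187 counts with PF429424 and 538 with IL4 (log2 ratio 1.22). Gdf15, a secreted stress cytokine, had 1093 counts with PF429424 and 494 with IL4 (log2 ratio 1.22). Ppp1r15a, a phosphatase subunit that lets protein synthesis resume after stress, had 704 counts with PF429424 and 359 with IL4 (log2 ratio 1.05). The members below 0 were Ddit4 at 54 counts with PF429424 and 78 with IL4 (log2 ratio -0.44), Tnfrsf10b at 265 counts with PF429424 and 312 with IL4 (log2 ratio -0.15), and Stc2 at 0 counts with PF429424 and 2 with IL4. Against the median of the 5 other libraries in place of IL4, the median of the list was 0.43.

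ATF4 binds, with C/EBP partners, a composite element whose core letters are TGATGNAA. Promoter windows from RefSeq, 250 bases before to 50 after the start site, were read for Asns and Chac1 because these genes are ATF4 targets with some of the largest ratios of the list, and the match is printed in capitals, 5′ to 3′ on the strand of the gene, on GRCm38.p6. Asns lies at chr6:7675165-7693209 and its window at chr6:7693160-7693459 on the minus strand, where the match starts 23 bases before the start site. Chac1 lies at chr2:119351242-119354326 and its window at chr2:119350992-119351291 on the plus strand, where the match starts 193 bases before the start site and reads on the other strand.
Asns: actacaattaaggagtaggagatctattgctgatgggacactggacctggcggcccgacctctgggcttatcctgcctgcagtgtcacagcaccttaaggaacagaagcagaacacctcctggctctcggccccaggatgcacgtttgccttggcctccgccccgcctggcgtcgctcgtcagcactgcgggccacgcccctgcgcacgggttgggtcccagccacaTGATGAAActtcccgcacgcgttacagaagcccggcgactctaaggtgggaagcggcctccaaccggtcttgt
Chac1: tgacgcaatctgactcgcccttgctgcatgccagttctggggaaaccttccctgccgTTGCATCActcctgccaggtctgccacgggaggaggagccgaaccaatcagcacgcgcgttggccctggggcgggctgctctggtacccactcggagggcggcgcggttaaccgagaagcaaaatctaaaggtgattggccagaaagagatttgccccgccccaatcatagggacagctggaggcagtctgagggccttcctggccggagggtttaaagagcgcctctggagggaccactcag

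The element, searched on both strands, was found in the windows of 277 of 9584 compared genes with a window (2.89%) and in 3.97% of all 32851 windows. It was found in 8 of 22 genes of the ATF4 list, 5 of 13 cytosolic tRNA synthetases, 3 of 14 amino acid transporters, 1 of 15 genes of serine and one-carbon synthesis and 0 of 14 mitochondrial tRNA synthetases. Among the genes called higher 18 of 232 held it (7.76%), and among those called lower 12 of 495 (2.42%). Over the ATF4, synthetase, transporter and serine lists joined, the 16 genes with the element had a median log2 ratio of 1.01, with 8 called higher, and the 47 without it had a median of 0.58, with 14 called higher. Some of these lists were drawn up from known ATF4 targets, and a match of letters is not a bound site.

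The enzymes that charge tRNA in the cytosol all stood above 0, while those of mitochondria had a median near 0. Of 20 cytosolic aminoacyl-tRNA synthetases, all 20 had a ratio above 0, 5 were called higher, the median was 0.85, and the PF429424 library was the highest of the 6 for 10, beside 14.5% of all genes. Aars, the alanine enzyme, had 7080 counts with PF429424 and 2698 with IL4 (log2 ratio 1.47). Cars for cysteine (2118 counts with PF429424 and 910 with IL4, log2 ratio 1.30), Yars for tyrosine (1881 with PF429424 and 809 with IL4, log2 ratio 1.30), Sars for serine (4528 with PF429424 and 2068 with IL4, log2 ratio 1.21) and Tars for threonine (2564 with PF429424 and 1340 with IL4, log2 ratio 1.02) were called higher too. Qars, the glutamine enzyme, was the lowest of the list at 2021 counts with PF429424 and 2071 with IL4 (log2 ratio 0.04), and its interval of -0.04 to 0.13 included no change. Summed over the list, the cytosolic enzymes made up 3106 CPM with PF429424, 1889 to 3033 CPM with the other compounds and 1725 CPM with IL4. The 17 mitochondrial synthetases had a median of -0.002, with 8 above and 9 below 0 and none called. Their ratios ran from -0.32 for Pars2, at 89 counts with PF429424 and 118 with IL4, to 0.50 for Rars2, at 519 counts with PF429424 and 387 with IL4. The cytosolic median stayed above 0 with library totals (0.72) and against the median of the 5 other libraries (0.62).

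**Figure D2:**
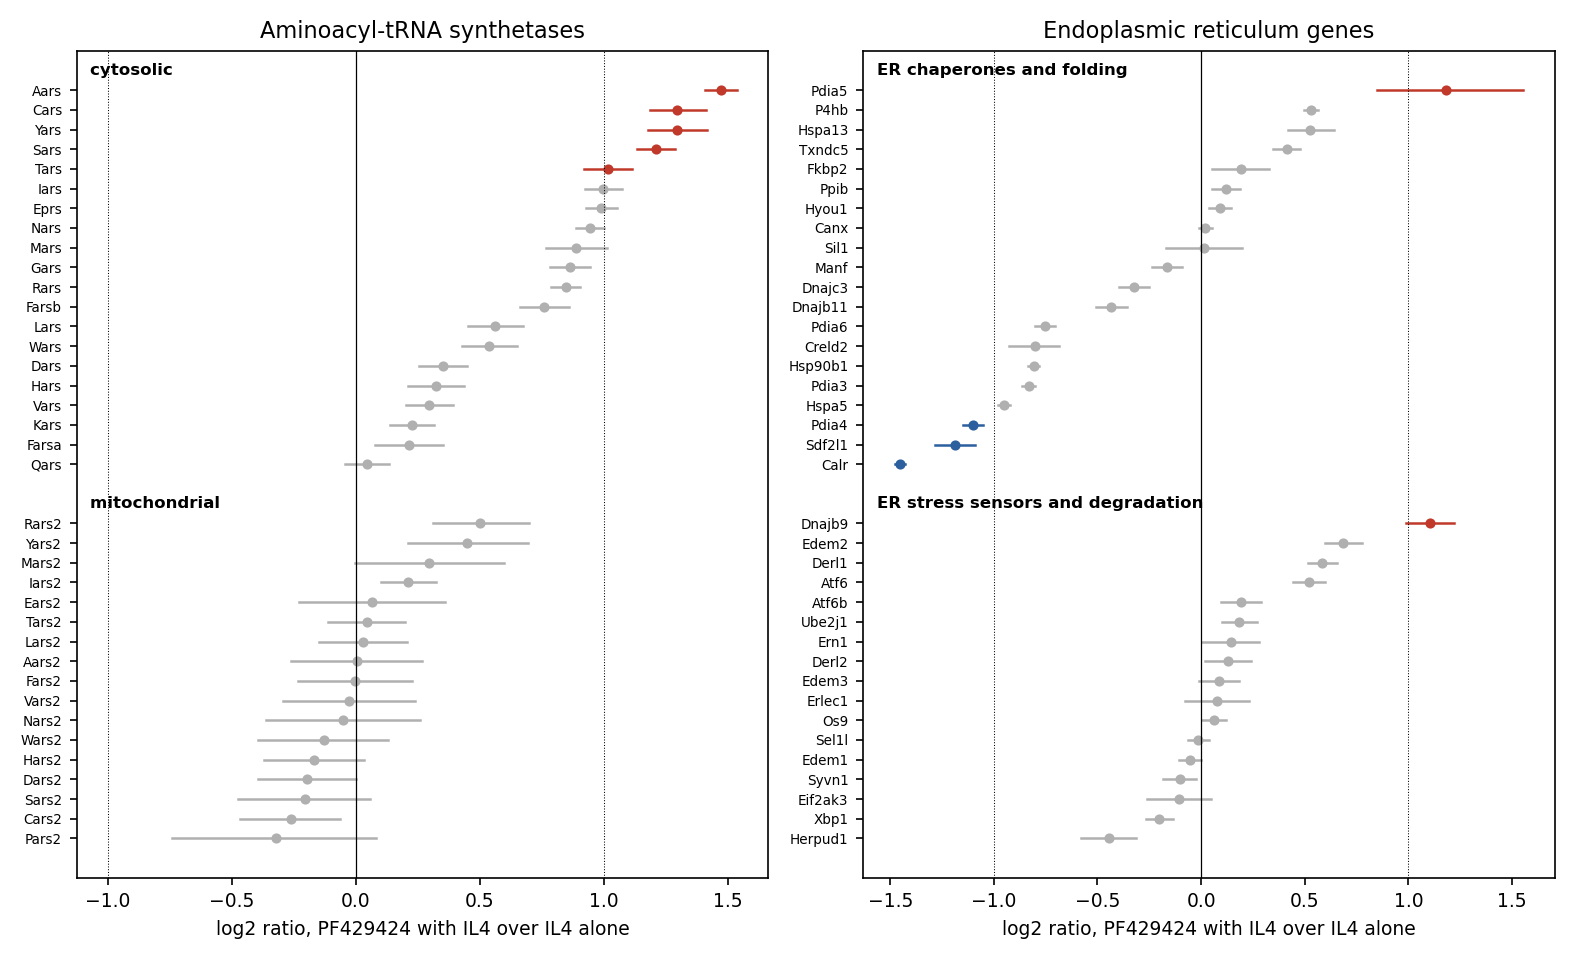
Log2 ratio of PF429424 with IL4 over IL4 alone for each gene, with its 95% counting interval, for cytosolic and mitochondrial aminoacyl-tRNA synthetases (left panel) and for ER chaperones and ER stress sensors (right panel); red marks genes called higher and blue genes called lower. The 20 cytosolic synthetases all lie above 0 and the 17 mitochondrial ones straddle it, and Calr, Sdf2l1 and Pdia4 are called lower while Pdia5 and Dnajb9 are called higher.

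The enzymes that make serine and the first enzyme of proline synthesis were called higher, while several of folate and thymidylate synthesis stood below 0. Phgdh, the first enzyme of serine synthesis, had 2396 counts with PF429424 and 597 with IL4 (log2 ratio 2.08). The other enzymes of that route had 5035 counts with PF429424 and 1688 with IL4 for Psat1 (log2 ratio 1.66) and 378 with PF429424 and 156 with IL4 for Psph (log2 ratio 1.35). Mthfd2, the mitochondrial folate enzyme, had 3135 counts with PF429424 and 744 with IL4 (log2 ratio 2.15), and Aldh18a1, which starts proline synthesis, had 1513 with PF429424 and 627 with IL4 (log2 ratio 1.35). For all 5 of these genes the PF429424 library was the highest of the 6. Pycr1, an enzyme of the last step of proline synthesis, had 34 counts with PF429424 and 17 with IL4 (log2 ratio 0.995) and was not called. Phgdh was at 118 CPM with PF429424 against 68.8 CPM in the next library, 1,10-Phen, and 27.8 CPM with IL4. The cytosolic folate enzyme Shmt1 had 74 counts with PF429424 and 141 with IL4 (log2 ratio -0.83), the thymidylate enzyme Tyms had a log2 ratio of -0.77, and Aldh1l1, which oxidises formyl-folate, was called lower at 67 counts with PF429424 and 179 with IL4 (log2 ratio -1.31). Over the 19 genes compared, 5 were called higher and 1 lower, and the median of 0.13 was -0.01 with library totals, so no direction is given for the list.

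Amino acid transporters also differed among themselves. Of 19 compared, 4 were called higher and 1 lower, with a median of 0.28, or 0.15 against the median of the 5 other libraries. Slc7a5, which with Slc3a2 forms the carrier of large neutral amino acids, had 735 counts with PF429424 and 186 with IL4 (log2 ratio 2.05), and its partner Slc3a2 had 11113 with PF429424 and 6798 with IL4 (log2 ratio 0.79). Slc7a1, an arginine and lysine carrier, had 3373 counts with PF429424 and 972 with IL4 (log2 ratio 1.87). Slc1a4, a carrier of alanine and serine, had 110 with PF429424 and 26 with IL4 (log2 ratio 2.08), and the glycine carrier Slc6a9 had 172 with PF429424 and 52 with IL4 (log2 ratio 1.77). Slc7a2, another arginine carrier and part of the alternative activation programme, had 8688 counts with PF429424 and 9840 with IL4 (log2 ratio -0.10), and was not called. Slc43a2, a carrier of branched-chain amino acids, was called lower at 2036 counts with PF429424 and 5245 with IL4 (log2 ratio -1.28).

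Several ER chaperones with many counts were lower. Of 20 genes of folding in the ER, 1 was called higher and 3 were called lower, beside 2.50% and 5.60% of all genes. The median was -0.24, and the summed level was 6602 CPM with PF429424, 8007 to 11122 CPM with the other compounds and 10193 CPM with IL4. Calr, calreticulin, the calcium-binding lectin chaperone, had 16583 counts with PF429424 and 47995 with IL4 (log2 ratio -1.45, -1.48 to -1.43). Its 816 CPM with PF429424 lay below the 1454 CPM with 1,10-Phen, 1653 with 25-HC, 2342 with betulin, 2424 with fatostatin and 2235 with IL4. Sdf2l1, a partner of the Hsp70 chaperone of the ER, had 1231 counts with PF429424 and 2967 with IL4 (log2 ratio -1.19), and the disulfide isomerase Pdia4 had 5321 with PF429424 and 12066 with IL4 (log2 ratio -1.10). Hspa5, that Hsp70 chaperone, also called BiP, had 15361 counts with PF429424 and 31368 with IL4, a ratio of -0.95 (-0.98 to -0.92) just short of the 2-fold rule. Hsp90b1 (log2 ratio -0.81), Pdia3 (log2 ratio -0.83) and Pdia6 (log2 ratio -0.75) were, like Hspa5, at their lowest of the 6 libraries with PF429424, although Hspa5 was at 756 CPM with PF429424 and close to it, 797 CPM, with 1,10-Phen.

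Other ER genes were near or above the IL4 level. Canx, the membrane-bound relative of Calr, had 14655 counts with PF429424 and 15274 with IL4 (log2 ratio 0.02), and the large chaperone Hyou1 had 5849 with PF429424 and 5811 with IL4 (log2 ratio 0.09). P4hb, the best known disulfide isomerase, had 18420 counts with PF429424 and 13486 with IL4 (log2 ratio 0.53), and Pdia5, another isomerase, was called higher at 217 counts with PF429424 and 100 with IL4 (log2 ratio 1.18). Dnajb9, a co-chaperone of Hspa5, was called higher at 1789 counts with PF429424 and 880 with IL4 (log2 ratio 1.10). Among the sensors, Atf6 had 3225 counts with PF429424 and 2379 with IL4 (log2 ratio 0.52), Ern1, which encodes IRE1, 891 with PF429424 and 853 with IL4 (log2 ratio 0.14), Eif2ak3, which encodes PERK, 648 with PF429424 and 737 with IL4 (log2 ratio -0.11), and Xbp1, the factor spliced by IRE1, 3602 with PF429424 and 4379 with IL4 (log2 ratio -0.20). Of the 17 sensors and degradation genes compared, 1 was called higher and 0 lower. The 25 genes of COPII and Golgi transport had a median of 0.13, or -0.01 with library totals and 0.03 against the median of the 5 other libraries, and none was called.

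The ER stress response element, CCAAT followed by 9 bases and CCACG (searched as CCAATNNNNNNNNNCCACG on both strands, which always holds a CCAAT box), is the classical site of ATF6. The windows of Calr and Hspa5 are printed because these chaperones had the largest differences in counts of the list, with the element in capitals. Calr lies at chr8:84842088-84846931 and its window at chr8:84846882-84847181 on the minus strand, where the match starts 162 bases before the start site on the other strand. Hspa5 lies at chr2:34772090-34776529 and its window at chr2:34771840-34772139 on the plus strand, where the match starts 65 bases before the start site.
Calr: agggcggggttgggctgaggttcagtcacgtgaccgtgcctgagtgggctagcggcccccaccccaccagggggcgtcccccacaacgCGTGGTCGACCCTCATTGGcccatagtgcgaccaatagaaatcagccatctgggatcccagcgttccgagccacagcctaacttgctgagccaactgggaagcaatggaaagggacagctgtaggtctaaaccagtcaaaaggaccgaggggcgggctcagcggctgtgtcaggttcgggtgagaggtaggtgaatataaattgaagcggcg
Hspa5: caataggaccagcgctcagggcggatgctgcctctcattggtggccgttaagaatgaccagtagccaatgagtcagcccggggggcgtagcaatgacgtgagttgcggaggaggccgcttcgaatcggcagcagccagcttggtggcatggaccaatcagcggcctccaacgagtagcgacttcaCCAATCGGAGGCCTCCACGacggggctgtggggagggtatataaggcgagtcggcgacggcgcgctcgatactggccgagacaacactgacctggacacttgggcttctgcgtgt

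Only 15 of 9584 compared genes with a window held this element (0.157%, beside 0.119% of all windows), and 7 of them were among the 16 chaperones with a window. The 7 chaperones with the element had a median log2 ratio of -0.80, with 6 below 0 and 1 called lower, and the 9 without it had a median of 0.12, with 4 below 0 and 2 called lower. Over all 15 genes with the element the median was -0.72, 12 lay below 0 and 2 were called lower, beside a median of 0.03 over the 9569 genes without it. Besides Calr, the gene with the element called lower was Adcy3, an adenylate cyclase, at 225 counts with PF429424 and 805 with IL4 (log2 ratio -1.75). Canx, Hnrnpa3 and Alg12 also held the element and had ratios of 0.02, 0.03 and 0.15. The CCAAT box by itself was in 43.4% of compared genes, whose median was -0.003.

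A carrier of sterol was called lower with PF429424, and more compared genes of sterol synthesis had a log2 ratio below 0 than above it. Stard4, a carrier of sterol between membranes, had 97 counts with PF429424 and 375 with IL4 (log2 ratio -1.85). The 21 compared genes of sterol synthesis had 16 below and 5 above 0 and a median of -0.22, with 0 called higher and 1 lower. Sqle, squalene epoxidase, had 279 counts with PF429424 and 277 with IL4 (log2 ratio 0.09), and Mvd, of the mevalonate pathway, 227 with PF429424 and 395 with IL4 (log2 ratio -0.71). Srebf2, which encodes SREBP2, had 1219 counts with PF429424 and 1801 with IL4 (log2 ratio -0.48), and its level with PF429424 was the lowest of the 6 libraries, while Srebf1 had 1318 with PF429424 and 1454 with IL4 (log2 ratio -0.06). The escort Scap (log2 ratio 0.32), the retention factor Insig1 (log2 ratio -0.31) and the proteases Mbtps1 (log2 ratio 0.05) and Mbtps2 (log2 ratio 0.46) were not called. The 14 compared genes of SREBP machinery and sterol uptake had a median of -0.09, with 0 called higher and 2 lower. A sterol response element, TCACNCCAC on either strand, was found in 1 of 16 windows of sterol synthesis genes and none of 11 of this second list, beside 1.33% of compared genes.

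Abca1 was the LXR target furthest below IL4. Abca1, the transporter that loads cholesterol onto lipoproteins, had 113 counts with PF429424 and 775 with IL4 (log2 ratio -2.68). It was at 5.56 CPM with PF429424, 46.6 with fatostatin, 31.7 with betulin, 603 with 25-HC, 53.9 with 1,10-Phen and 36.1 with IL4, so PF429424 lay below the next lowest library by a log2 ratio of -2.49. The related LXR target Abcg1 had 1737 counts with PF429424 and 2314 with IL4 (log2 ratio -0.33), and Mylip, a ubiquitin ligase, had 126 with PF429424 and 311 with IL4 (log2 ratio -1.21). In the same list of LXR targets and cholesterol export genes, Abca9 (log2 ratio -2.02), Arl4c (log2 ratio -1.44) and Apoc2 (log2 ratio -1.35) were also called lower. Abca9 was at 16.9 CPM with PF429424, 15.1 with 25-HC and 69.2 with IL4. Apoc2 was at 2.12 CPM with PF429424, 2.14 with 25-HC and 5.54 with IL4, and Arl4c at 128, 306 and 349 CPM in that order. Of the 11 genes compared 5 were called lower and 0 higher, with a median of -0.57, or -0.38 against the median of the 5 other libraries. Apoe, the main apolipoprotein of macrophages, had 34422 counts with PF429424 and 50353 with IL4 (log2 ratio -0.47), and the receptor genes Nr1h3 (log2 ratio 0.07) and Nr1h2 (log2 ratio 0.01) were near 0.

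In fatty acid synthesis the genes called were the stearoyl-CoA desaturases Scd1 and Scd2, both lower, while the desaturases Fads1 (log2 ratio -0.16) and Fads3 (log2 ratio -0.20) were not called. Scd2 had 222 counts with PF429424 and 556 with IL4 (log2 ratio -1.24), and Scd1 had 2 counts with PF429424 and 27 with IL4. Scd2 was at 10.9 CPM with PF429424, 19.7 to 659 CPM with the other compounds and 25.9 CPM with IL4, and 25-HC held the highest level. Fasn (1882 counts with PF429424 and 1808 with IL4, log2 ratio 0.14), Acly (log2 ratio -0.05) and Acaca (log2 ratio 0.38), the core enzymes of the pathway, were not called, and the list of 17 had a median of -0.16, or 0.06 against the median of the 5 other libraries. Of 25 genes of lipid storage and use 2 were called higher and 1 lower, beside 2.50% and 5.60% of all genes. Hilpda, an inhibitor of triglyceride breakdown, was called higher at 941 counts with PF429424 and 301 with IL4 (log2 ratio 1.72), and the fatty acid binding protein Fabp5 had 8795 with PF429424 and 4327 with IL4 (log2 ratio 1.10). Hilpda had a log2 ratio of -0.12 against the median of the 5 other libraries, so its direction differs with the library it is set against. Soat2, which esterifies cholesterol, had 133 counts with PF429424 and 19 with IL4 (log2 ratio 2.76), whereas its relative Soat1 had 11096 with PF429424 and 10969 with IL4 (log2 ratio 0.10).

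**Figure D3:**
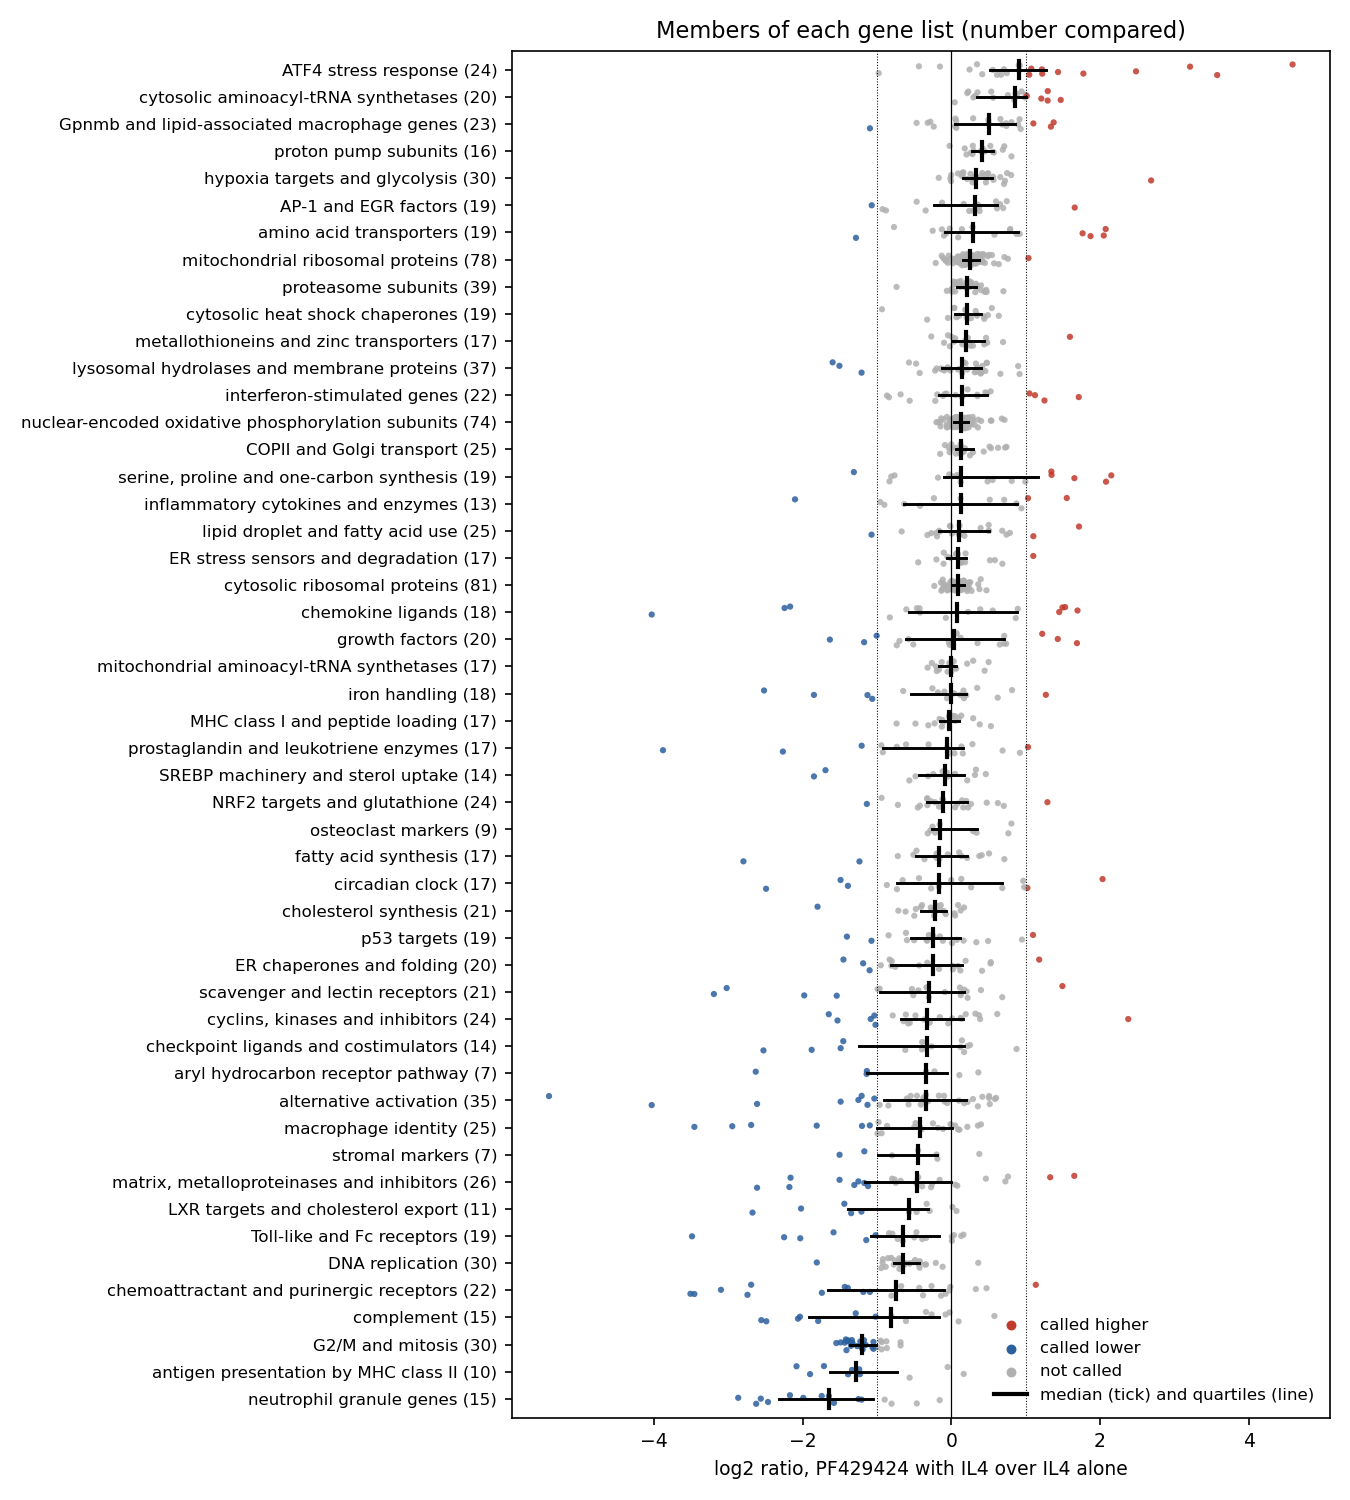
Log2 ratio of PF429424 with IL4 over IL4 alone for the members of each gene list with at least 7 genes compared, ordered by the median of the list; red points are called higher, blue points lower and grey points neither, and black marks give the median and quartiles. The ATF4 list (median 0.91) and the cytosolic synthetases (0.85) are at the top, and neutrophil granule genes (-1.65), MHC class II genes (-1.29) and mitosis genes (-1.20) at the bottom.

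Markers of alternative activation were not uniform. Retnla, the secreted protein also called FIZZ1 and a standard marker of IL4-treated mouse macrophages, had the lowest ratio of all named genes, at 222 counts with PF429424 and 10103 with IL4 (log2 ratio -5.42, -5.63 to -5.24). Its level was 10.9 CPM with PF429424, 318 with fatostatin, 147 with betulin, 15.3 with 25-HC, 23.5 with 1,10-Phen and 471 with IL4, so PF429424, 25-HC and 1,10-Phen were far below the other 3 libraries. Ccl24, a chemokine for eosinophils, had 17 counts with PF429424 and 326 with IL4 (log2 ratio -4.03), and F13a1, a clotting transglutaminase, had 447 with PF429424 and 2906 with IL4 (log2 ratio -2.62). Pdcd1lg2, which encodes the checkpoint ligand PD-L2, had 360 counts with PF429424 and 1073 with IL4 (log2 ratio -1.49), and the lectin Mgl2 had 3036 with PF429424 and 6589 with IL4 (log2 ratio -1.04). Arg1, arginase, had 40307 counts with PF429424 and 76714 with IL4 (log2 ratio -0.85) and Mrc1, the mannose receptor, 21539 with PF429424 and 44467 with IL4 (log2 ratio -0.97), both just short of the 2-fold rule. Arg1 was the lowest of the 6 libraries with PF429424 at 1984 CPM, next to 2072 CPM with 25-HC and below 3573 CPM with IL4.

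Other genes of the programme were at or above the IL4 level. Chil3, the chitinase-like protein Ym1, had 92571 counts with PF429424 and 68832 with IL4 (log2 ratio 0.51), though reads may be shared with its near-identical copy Chil4, which had 93 with PF429424 and 125 with IL4 (log2 ratio -0.34), so both values are uncertain. Pparg (3107 counts with PF429424 and 2311 with IL4, log2 ratio 0.51), Egr2 (6229 with PF429424 and 5144 with IL4, log2 ratio 0.36) and Klf4 (1400 with PF429424 and 975 with IL4, log2 ratio 0.60), transcription factors of the programme, had ratios above 0 and were not called. Of the IL4 signalling chain, the receptor Il4ra had 1435 counts with PF429424 and 2018 with IL4 (log2 ratio -0.41), with the lowest level of the 6 libraries under PF429424, and its transcription factor Stat6 had 5729 with PF429424 and 5656 with IL4 (log2 ratio 0.10). The feedback inhibitors Socs1 (log2 ratio -0.31) and Cish (log2 ratio -0.37) lay below 0 and were not called. Over the 35 genes compared, 8 were called lower and 0 higher, 24 lay below 0, and the median was -0.34, or -0.16 against the median of the 5 other libraries.

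Chemokine receptors and receptors for dying cells were among the macrophage identity genes called lower. Of 25 macrophage identity genes 6 were called lower and 0 higher, with a median of -0.42, or -0.21 against the median of the 5 other libraries. Cx3cr1, the fractalkine receptor, had 15 counts with PF429424 and 195 with IL4 (log2 ratio -3.46), and Ccr2, the monocyte chemokine receptor, had 118 with PF429424 and 819 with IL4 (log2 ratio -2.69). Both were at their lowest of the 6 libraries with PF429424. Maf, a transcription factor of mature macrophages, had 1054 counts with PF429424 and 3919 with IL4 (log2 ratio -1.81), and the receptors for dying cells Axl (1618 with PF429424 and 3941 with IL4, log2 ratio -1.20) and Mertk (807 with PF429424 and 1829 with IL4, log2 ratio -1.10) were called lower. Gas6, the ligand of both, had 631 counts with PF429424 and 2077 with IL4 (log2 ratio -1.64). Csf1r, the M-CSF receptor, had 20045 counts with PF429424 and 42248 with IL4 and Adgre1, which encodes F4/80, 9738 with PF429424 and 20305 with IL4 (log2 ratio -0.98), and neither was called. Spi1, the lineage factor PU.1, had 9742 counts with PF429424 and 8042 with IL4 (log2 ratio 0.36), and the log2 ratios of the integrin Itgam (0.09) and the lipid receptor Trem2 (0.05) were near 0.

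The C1q genes and other complement genes were called lower. C1qa, C1qb and C1qc, the 3 chains of C1q, had 1307, 4922 and 3809 counts with PF429424 and 8151, 21384 and 16855 with IL4. Their log2 ratios were -2.56, -2.04 and -2.06. C1qa was at 64.3 CPM with PF429424, 36.3 with 1,10-Phen, 87.3 with 25-HC, 204 with betulin and 253 with fatostatin, against 379.6 CPM with IL4, so every compound library was below IL4. C3, the central complement protein, had 322 counts with PF429424 and 1923 with IL4 (log2 ratio -2.49), and properdin, Cfp, 2496 with PF429424 and 6444 with IL4 (log2 ratio -1.29). The 15 complement genes compared had 7 called lower and 0 higher and a median of -0.81, or -0.32 against the median of the 5 other libraries. Stab1, a scavenger receptor, had 8184 counts with PF429424 and 34154 with IL4 (log2 ratio -1.98), the haemoglobin receptor Cd163 32 with PF429424 and 290 with IL4 (log2 ratio -3.02), and the lectin Clec4n 124 with PF429424 and 386 with IL4 (log2 ratio -1.54). Of 21 genes of the scavenger and lectin receptor list 4 were called lower and 1 higher, with a median of -0.30, or -0.15 against the median of the 5 other libraries. The genes called lower include Cbr2, a carbonyl reductase and not a receptor, at 48 counts with PF429424 and 482 with IL4 (log2 ratio -3.20). Clec5a, an activating lectin receptor, was called higher at 1208 counts with PF429424 and 452 with IL4 (log2 ratio 1.49), and Cd36, the receptor for oxidised lipids, had 79209 with PF429424 and 52098 with IL4 (log2 ratio 0.68).

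Most genes of antigen presentation by MHC class II were called lower. Cd74, the invariant chain, had 2214 counts with PF429424 and 8754 with IL4 (log2 ratio -1.90), and Ciita, the factor that switches the set on, had 42 with PF429424 and 195 with IL4 (log2 ratio -2.08). The chains H2-Aa (228 counts with PF429424 and 635 with IL4, log2 ratio -1.39), H2-Ab1 (291 with PF429424 and 781 with IL4, log2 ratio -1.34) and H2-Eb1 (135 with PF429424 and 340 with IL4, log2 ratio -1.24) were called lower. Of 10 genes compared 7 were called lower, with a median of -1.29. The list medians of the other compounds over IL4 lay between -1.63 with 25-HC and -0.92 with betulin, and against the median of the 5 other libraries the PF429424 median was -0.26. MHC class I and peptide loading genes had a median of -0.03, or 0.15 against the median of the 5 other libraries, with none of 17 called. Of 14 checkpoint ligands and costimulators 4 were called lower and 0 higher. Icosl had 21 counts with PF429424 and 138 with IL4 (log2 ratio -2.53) and Cd86 65 with PF429424 and 192 with IL4 (log2 ratio -1.46), both called lower and at their lowest of the 6 libraries with PF429424, while Cd274, which encodes PD-L1, had 3071 with PF429424 and 2791 with IL4 (log2 ratio 0.22).

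Chemoattractant and nucleotide receptors were often called lower, and some Toll-like and Fc receptors were as well. Of 22 chemoattractant and purinergic receptors 10 were called lower and 1 higher (median -0.74, or -0.44 against the median of the 5 other libraries), and PF429424 was the lowest of the 6 libraries for 9 of them, beside 1430 of all 11908 genes. The nucleotide receptors P2ry12 (9 counts with PF429424 and 130 with IL4, log2 ratio -3.51) and P2ry13 (5 with PF429424 and 61 with IL4, log2 ratio -3.10) were called lower, and P2ry2, another nucleotide receptor, was called higher (894 with PF429424 and 429 with IL4, log2 ratio 1.14). Cxcr4, the receptor for the bone marrow chemokine Cxcl12, had 830 counts with PF429424 and 1998 with IL4 (log2 ratio -1.19). Tlr2 had 154 counts with PF429424 and 493 with IL4 (log2 ratio -1.59), Tlr8 5732 with PF429424 and 12294 with IL4 (log2 ratio -1.02), and the endotoxin receptor Tlr4 4142 with PF429424 and 5749 with IL4 (log2 ratio -0.39). Fcgrt, the neonatal Fc receptor, had 276 counts with PF429424 and 1397 with IL4 (log2 ratio -2.25). Of 19 Toll-like and Fc receptors 6 were called lower and 0 higher, with a median of -0.65, or -0.34 against the median of the 5 other libraries. Mefv, which encodes the inflammasome sensor pyrin, had 36 counts with PF429424 and 328 with IL4 (log2 ratio -3.04) and lay below the next lowest library by a log2 ratio of -2.02.

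Some markers of other cell types were called lower and others were not called, and their part in the results above was not tested. Neutrophil granule genes were lower in every one of the 15 compared, with 11 called lower and a median of -1.65. Ltf, lactoferrin, had 102 counts with PF429424 and 677 with IL4 (log2 ratio -2.63), Csf3r, the G-CSF receptor, 516 with PF429424 and 1834 with IL4 (log2 ratio -1.75), and Elane, neutrophil elastase, 26 with PF429424 and 53 with IL4 (log2 ratio -0.90). Ly6g, which defines mature neutrophils, had 0 counts with PF429424 and 5 with IL4. The summed level of the list was 471 CPM with PF429424, 492 to 913 CPM with the other compounds and 832 CPM with IL4, of which Mmp8, neutrophil collagenase, made up 382 CPM with PF429424 and 527 CPM with IL4. Stromal markers summed to 54.9 CPM with PF429424, 45.1 to 126 CPM with the other compounds and 118 CPM with IL4, with Col1a1 (341 counts with PF429424 and 1027 with IL4) and Col1a2 (439 with PF429424 and 1048 with IL4) called lower out of 7. Lymphocyte markers had 1 called lower of 4 compared and summed to 9.40 CPM with PF429424 and 13.4 CPM with IL4, and the T cell genes Cd3d, Cd3e and Cd3g had 1, 2 and 0 counts with PF429424 and 1, 4 and 1 with IL4. The B cell gene Ms4a1 had 0 counts with PF429424 and 8 with IL4, and Cd79b had 12 with PF429424 and 66 with IL4. Mast cell, basophil and eosinophil markers had 2 called lower of 3 compared and summed to 10.6 CPM with PF429424 and 12.5 CPM with IL4, with the mast cell protease Cpa3 at 0 counts in both libraries. Erythroid and megakaryocyte markers summed to 1.72 CPM with PF429424 and 2.42 CPM with IL4, with 1 gene compared and none called. Dendritic cell markers had none called of 5 compared and summed to 1399 CPM with PF429424 and 1077 CPM with IL4, and Flt3 had 3 counts with PF429424 and 14 with IL4. Of the 5 compared, 2 lay above and 3 below 0, with a median log2 ratio of -0.11, and Itgax was the highest (log2 ratio 0.39). Osteoclast markers had none called of 9 compared, with a median log2 ratio of -0.16, 4 above and 5 below 0. They summed to 2019.8 CPM with PF429424 and 1330.1 CPM with IL4. Of these sums the proton pump subunit Atp6v0d2 made up 1456 CPM with PF429424 and 831 CPM with IL4. Calcr, the calcitonin receptor, had 0 counts with PF429424 and 1 with IL4.

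Genes of mitosis stood below IL4 throughout, and those of DNA replication were rarely called. All 30 G2/M genes compared had a ratio below 0, 22 were called lower, and the median was -1.20, with a range from -1.55 to -0.68. Mki67, the proliferation antigen Ki-67, had 4549 counts with PF429424 and 12269 with IL4 (log2 ratio -1.35), Aurkb, a kinase of chromosome segregation, 396 with PF429424 and 1229 with IL4 (log2 ratio -1.55), and Top2a, which untangles DNA before division, 2325 with PF429424 and 6197 with IL4 (log2 ratio -1.33). The summed level was 1119 CPM with PF429424, 215 to 2153 CPM with the other compounds and 2545 CPM with IL4, and the PF429424 library was the lowest of the 6 for none of the 30 genes. Mki67 was at 224 CPM with PF429424, 379 with fatostatin, 451 with betulin, 323 with 25-HC, 5.03 with 1,10-Phen and 571 with IL4. Of 30 replication genes 29 lay below 0 but only 1 was called, Tk1, thymidine kinase, at 222 counts with PF429424 and 829 with IL4 (log2 ratio -1.81). The helicase subunits Mcm2 (log2 ratio -0.51) and Mcm7 (log2 ratio -0.88) and Pcna (6443 with PF429424 and 7393 with IL4, log2 ratio -0.12) were not called. Of 24 cyclins, kinases and inhibitors 1 was called higher and 5 lower. Cdkn1c, the inhibitor p57, was called higher at 87 counts with PF429424 and 16 with IL4 (log2 ratio 2.38), Cdkn2c, the inhibitor p18, was called lower at 272 counts with PF429424 and 907 with IL4 (log2 ratio -1.65), and Cdkn1a, the p53 target p21, had 7416 with PF429424 and 7786 with IL4 (log2 ratio 0.01). Ccnd1, cyclin D1, had 6176 counts with PF429424 and 5043 with IL4 (log2 ratio 0.37). Against the median of the 5 other libraries the medians were -0.71 for mitosis and -0.36 for replication.

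The cell cycle homology region, TTTGAA, is the promoter element of late cell cycle genes, and it was found on either strand in the windows of 14.5% of compared genes and 17.9% of all windows. It was present in 18 of the 24 mitosis genes with a window. These 18 had a median log2 ratio of -1.22 with 14 called lower, and the 6 without it had a median of -1.12 with 4 called lower. Among all genes called lower 25.5% held the element, and among those called higher 14.7%.

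Some of the genes with the most counts were higher. Gpnmb, a membrane glycoprotein of lysosome-rich macrophages at chr6:49036518-49058182, had 459724 counts with PF429424, the most of any gene in that library, and 187188 with IL4 (log2 ratio 1.38). Its level was 22633 CPM with PF429424, 11101 with fatostatin, 12943 with betulin, 10976 with 25-HC, 5947 with 1,10-Phen and 8718 with IL4. Spp1, osteopontin, had 60214 counts with PF429424 and 25162 with IL4 (log2 ratio 1.34), and the tetraspanins Cd63 (16147 with PF429424 and 9156 with IL4, log2 ratio 0.90) and Cd9 (18794 with PF429424 and 10408 with IL4, log2 ratio 0.93) were at their highest of the 6 libraries. Ctsd, cathepsin D, had 361538 counts with PF429424 and 202334 with IL4 (log2 ratio 0.92), and Psap, the precursor of the saposins, 419660 with PF429424 and 323172 with IL4 (log2 ratio 0.46). Of the 23 genes of the Gpnmb and lipid-associated macrophage list 3 were called higher and 1 lower, the median was 0.50, or 0.19 against the median of the 5 other libraries, and the summed level was 72005 CPM with PF429424, 42207 to 53303 CPM with the other compounds and 38741 CPM with IL4. The gene called lower was Tfec, a factor of the MiT/TFE family, at 813 counts with PF429424 and 1840 with IL4 (log2 ratio -1.10), and its relatives Mitf (log2 ratio 0.06), Tfeb (log2 ratio 0.06) and Tfe3 (log2 ratio 0.07) were near 0. Per length, the deposited FPKM of Gpnmb was 5714 with PF429424 and 2424 with IL4, and that of the ferritin light chain Ftl1 was 20576 with PF429424 and 17808 with IL4.

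**Figure D4:**
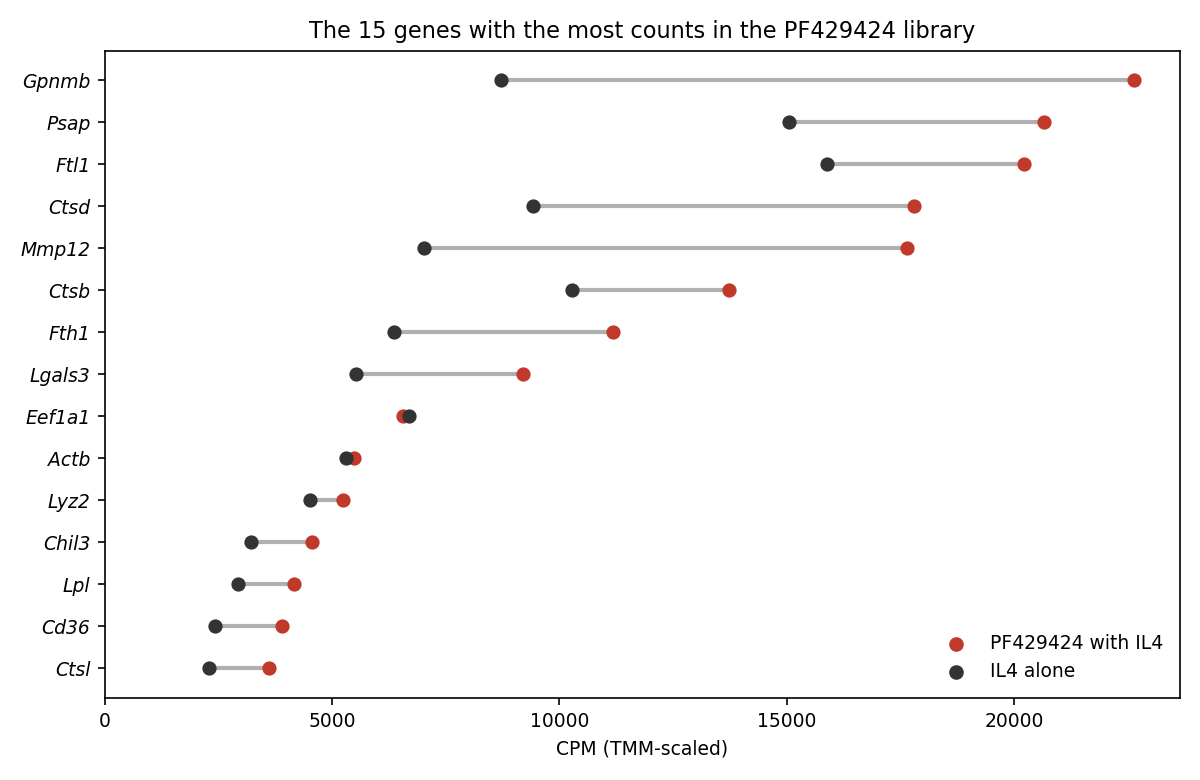
Level in CPM of the 15 genes with the most counts in the PF429424 library (red points) and the same genes in the IL4 library (dark points), joined by a grey line. Gpnmb, Ctsd and Mmp12 show the widest gaps, while Eef1a1 and Actb are nearly level.

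The proton pump of lysosomes also stood mostly above 0, with no gene called. Of 16 subunits 15 had a ratio above 0, the median was 0.41, or 0.23 against the median of the 5 other libraries, and PF429424 was the highest of the 6 libraries for 10. Atp6v0d2 had 29571 counts with PF429424 and 17852 with IL4 (log2 ratio 0.81), and Atp6v0a1 35516 with PF429424 and 22921 with IL4 (log2 ratio 0.71). Lysosomal hydrolases and membrane proteins had a median of 0.14 over 37 genes, 3 called lower and 0 higher. The genes called lower were the cathepsins Ctsc (3645 counts with PF429424 and 11672 with IL4, log2 ratio -1.60) and Ctsf (84 with PF429424 and 208 with IL4, log2 ratio -1.21) and the sulfatase Sgsh (280 with PF429424 and 845 with IL4, log2 ratio -1.51). The E-box TCACGTGA of the MiT/TFE factors was found in 3 of 11 proton pump windows and 4 of 30 lysosomal windows, beside 2.23% of compared genes. Among the genes called higher 4 of 232 held it (1.72%), and among those called lower 5 of 495 (1.01%).

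Chemokines and cytokines were called in both directions. The inflammatory chemokines Ccl2 (7893 counts with PF429424 and 3050 with IL4, log2 ratio 1.45), Ccl7 (5872 with PF429424 and 1913 with IL4, log2 ratio 1.70), Ccl3 (2018 with PF429424 and 737 with IL4, log2 ratio 1.53) and Ccl4 (1347 with PF429424 and 504 with IL4, log2 ratio 1.49), which attract monocytes and other leukocytes, were called higher. Besides Ccl24, the genes called lower were Cxcl16, a membrane-bound chemokine, at 245 counts with PF429424 and 1173 with IL4 (log2 ratio -2.17), and Ppbp at 24 counts with PF429424 and 128 with IL4 (log2 ratio -2.25). Tnf had 506 counts with PF429424 and 181 with IL4 (log2 ratio 1.55) and Ptgs2, inducible cyclooxygenase, 120 with PF429424 and 61 with IL4 (log2 ratio 1.03), whereas Il1b had 4 with PF429424 and 25 with IL4 (log2 ratio -2.11) and Il6 1 with PF429424 and 2 with IL4. Hbegf, an EGF family ligand, had 1341 counts with PF429424 and 438 with IL4 (log2 ratio 1.69) and Pdgfa 4689 with PF429424 and 1836 with IL4 (log2 ratio 1.43). The list medians were 0.07 for chemokine ligands, 0.12 for cytokines and 0.04 for growth factors. Against the median of the 5 other libraries those medians were -0.07 for chemokine ligands and -0.21 for cytokines. With library totals the medians of the 3 lists, in the same order, were -0.06, -0.01 and -0.09, so no direction is given for these lists.

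Among matrix genes, the proteases Mmp12 and Mmp13 were called higher, and the protease Mmp14 and several structural proteins lower. Mmp12, the macrophage elastase, had 358347 counts with PF429424 and 150714 with IL4 (log2 ratio 1.33), and the collagenase Mmp13 had 28276 with PF429424 and 9496 with IL4 (log2 ratio 1.65). Mmp12 was at 17642 CPM with PF429424, 17480.0 CPM with 25-HC and 18410.0 CPM with 1,10-Phen. Fn1, fibronectin, had 10024 counts with PF429424 and 25237 with IL4 (log2 ratio -1.25), Thbs1, thrombospondin, 996 with PF429424 and 4729 with IL4 (log2 ratio -2.17), Vcan, versican, 146 with PF429424 and 707 with IL4 (log2 ratio -2.18), and Tgfbi 1996 with PF429424 and 5223 with IL4 (log2 ratio -1.31), all called lower. The collagen genes Col1a1 (log2 ratio -1.51) and Col1a2 (log2 ratio -1.17) were lower beside the stromal marker sums given above. Mmp14, a membrane-bound metalloproteinase, had 252 counts with PF429424 and 582 with IL4 (log2 ratio -1.12). The structural genes Col4a1 (log2 ratio 0.05), Col4a2 (log2 ratio -0.77), Postn (log2 ratio -0.80) and Emilin1 (log2 ratio -0.26) were not called. Of 26 genes compared 2 were called higher and 8 lower. Interferon-stimulated genes had 4 called higher and 0 lower of 22, led by Rsad2, viperin, at 290 counts with PF429424 and 92 with IL4 (log2 ratio 1.71), while Oas2 had 234 with PF429424 and 453 with IL4 (log2 ratio -0.87).

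The iron exporter and several enzymes of lipid mediators were called lower. Slc40a1, ferroportin, which exports iron, had 637 counts with PF429424 and 3876 with IL4 (log2 ratio -2.52), and its level with PF429424 was the lowest of the 6 libraries. Tfrc, the transferrin receptor, had 5306 counts with PF429424 and 12270 with IL4 (log2 ratio -1.13), Hfe, its partner, 773 with PF429424 and 2951 with IL4 (log2 ratio -1.85), and Trf, transferrin, 6288 with PF429424 and 13909 with IL4 (log2 ratio -1.06). The ferritin chains that store iron had 227145 counts with PF429424 and 136354 with IL4 for Fth1 (log2 ratio 0.82) and 410808 with PF429424 and 341328 with IL4 for Ftl1 (log2 ratio 0.35), genes with many processed copies that may share reads. Over 18 genes 4 were called lower and 1 higher, with a median of -0.01. Of 17 prostaglandin and leukotriene enzymes 3 were called lower and 1 higher. Hpgd, which inactivates prostaglandins, had 32 counts with PF429424 and 527 with IL4 (log2 ratio -3.88), Alox5, which starts leukotriene synthesis, 34 with PF429424 and 181 with IL4 (log2 ratio -2.27), and Ptgs1, constitutive cyclooxygenase, 2022 with PF429424 and 4940 with IL4 (log2 ratio -1.21). Hpgd was at 1.58 CPM with PF429424, 1.05 CPM with 25-HC, 0.910 CPM with 1,10-Phen and 24.5 CPM with IL4. The enzyme called higher was Ptgs2 (log2 ratio 1.03), given above with the cytokines. Outside these enzymes, Ptgir, the prostacyclin receptor, was called higher at 2594 counts with PF429424 and 886 with IL4 (log2 ratio 1.63).

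Most glycolysis genes stood above 0 without being called. Of 30 hypoxia and glycolysis genes 26 had a ratio above 0 but only 1 was called, Egln3, an oxygen-sensing hydroxylase, at 163 counts with PF429424 and 25 with IL4 (log2 ratio 2.69). The glucose transporter Slc2a1 had 5302 counts with PF429424 and 3332 with IL4 (log2 ratio 0.75) and hexokinase Hk2 2578 with PF429424 and 1652 with IL4 (log2 ratio 0.72). The median was 0.34, or 0.03 against the median of the 5 other libraries, and Egln3 was at 8.02 CPM with PF429424, 617 CPM with 1,10-Phen, the highest of the 6, and 1.16 CPM with IL4. None of 74 nuclear-encoded respiratory subunits, 81 cytosolic ribosomal proteins and 39 proteasome subunits was called, with medians of 0.14, 0.09 and 0.21, or -0.002, -0.05 and 0.07 with library totals. Against the median of the 5 other libraries the median of the proteasome subunits was 0.08. The list of cytosolic heat shock chaperones also had none called of 19 (median 0.20). Its member Hspd1, a chaperonin of mitochondria and not of the cytosol, had 6352 counts with PF429424 and 4316 with IL4 (log2 ratio 0.64). NRF2 targets had 1 called higher and 1 lower of 24, beside 2.50% and 5.60% of all genes. Among them were Hmox1 at 19530 counts with PF429424 and 17969 with IL4 (log2 ratio 0.20) and Nqo1 at 69 with PF429424 and 163 with IL4 (log2 ratio -1.14).

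Set against all other libraries, PF429424 was the highest of the 6 for 14.5% of genes and the lowest for 1430 genes. It was the highest for 139 (46.6%) of the genes called higher against IL4 and the lowest for 229 (34.3%) of those called lower. The calls are made from the PF429424 level too, so larger shares among called genes are favoured by the rule. Only 14 genes (0.118%) were at least 2-fold above every other library and 23 (0.193%) at least 2-fold below. Rbp4, the carrier of retinol, had 19.0 CPM with PF429424, 1.59 to 3.29 CPM with the other compounds and 0.931 CPM with IL4, a log2 ratio of 2.49 over the next library. Slc27a6, a fatty acid transporter, had 7.24 CPM with PF429424, 1.59 to 2.16 CPM with the other compounds and 1.21 CPM with IL4. Ptgir had 128 CPM with PF429424 and 40.7 to 49.0 CPM in the other 5 libraries. Mfge8, a bridge between dying cells and the cells that engulf them, had 173 CPM with PF429424, 38.8 to 80.8 CPM with the other compounds and 58.9 CPM with IL4. Lat, an adaptor of immune receptor signalling, had 25.6 CPM with PF429424, 3.37 to 11.0 CPM with the other compounds and 5.64 CPM with IL4. On the lower side, Abca1, Mefv, Cx3cr1 and Icosl were at least 2-fold below every other library.

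**Figure D5:**
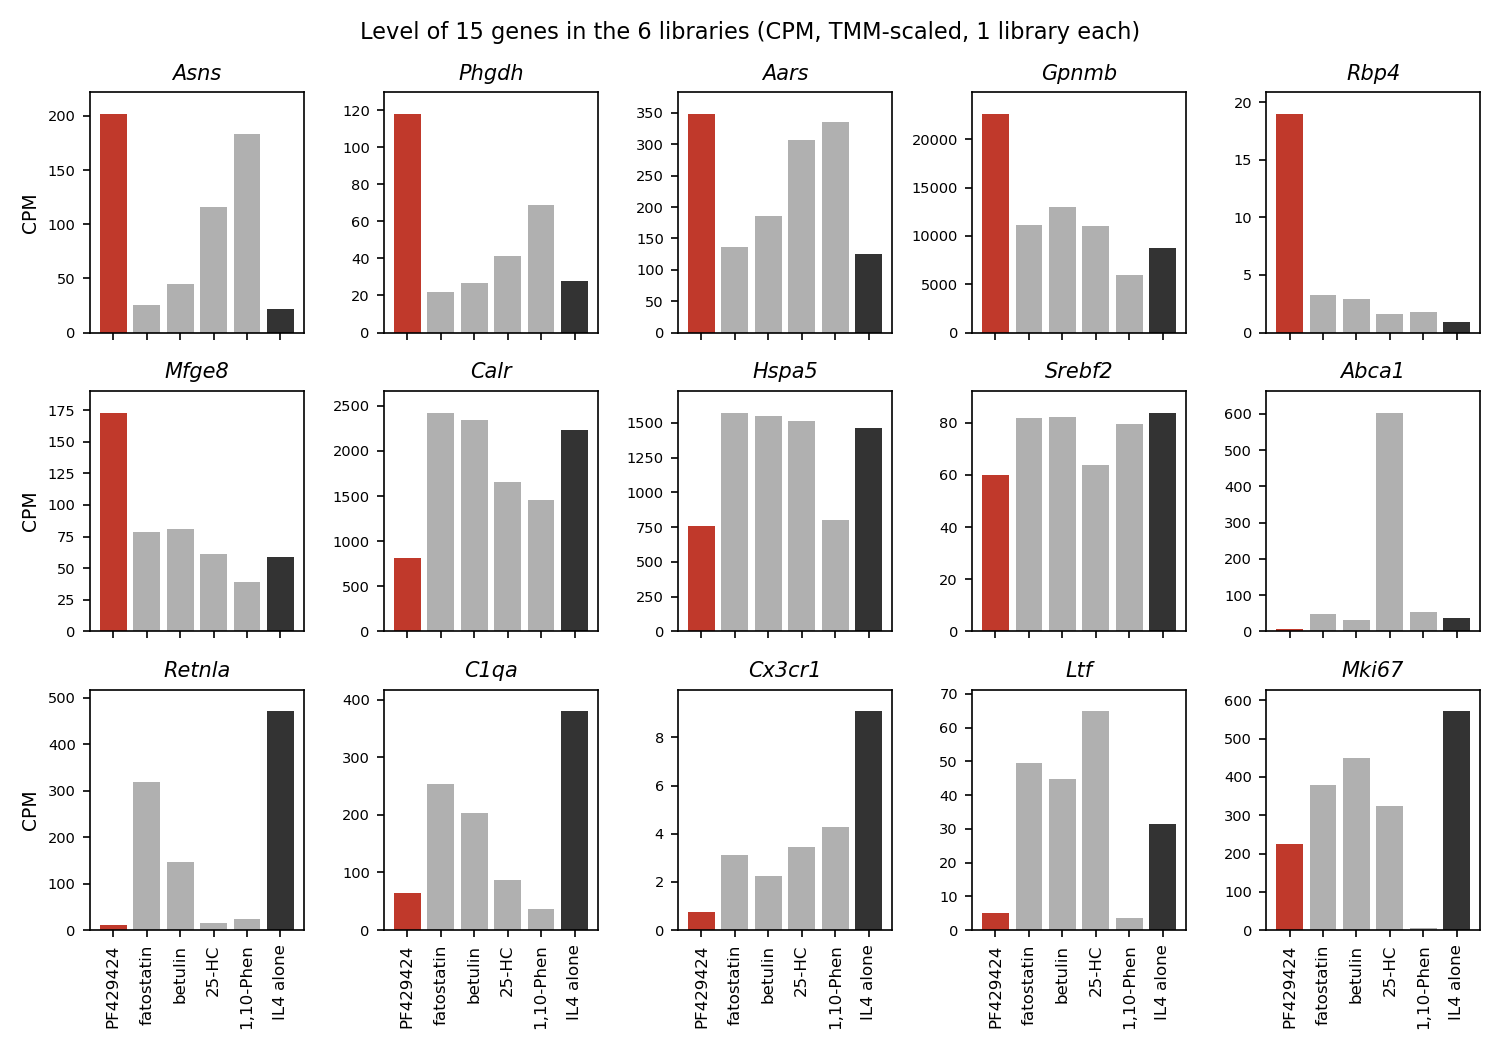
Level in CPM of 15 genes in the 6 libraries, 1 bar per library, with PF429424 in red at the left, the other 4 compounds in grey and IL4 alone in dark at the right; each panel has its own axis from 0. Rbp4, Phgdh, Gpnmb and Mfge8 are highest with PF429424, Calr, Srebf2, Abca1 and Cx3cr1 are lowest with it, and Ltf is below its IL4 level with PF429424 and 1,10-Phen.

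Several genes with large ratios belonged to none of these groups. Bex1, a small adaptor protein best known from neurons, had 1806 counts with PF429424 and 158 with IL4 (log2 ratio 3.58), and stood at 88.9 CPM with PF429424, 53.2 with fatostatin, 22.9 with betulin, 6.97 with 25-HC, 1.82 with 1,10-Phen and 7.36 with IL4. Dio2, which activates thyroid hormone, had 1378 counts with PF429424 and 154 with IL4 (log2 ratio 3.22), and was at 67.8 CPM with PF429424, 67.8 CPM with betulin and 94.4 CPM with 25-HC, against 7.17 CPM with IL4. Aqp9, a glycerol channel, had 209 counts with PF429424 and 28 with IL4 (log2 ratio 2.89), Tspan7, a tetraspanin, 135 with PF429424 and 14 with IL4 (log2 ratio 3.17), and Cox6a2, a muscle form of a respiratory subunit, 151 with PF429424 and 13 with IL4 (log2 ratio 3.42). Rnase2a, of a family of similar ribonuclease genes and so uncertain, had 435 counts with PF429424 and 5009 with IL4 (log2 ratio -3.44), and the sodium channel Scn3a 23 with PF429424 and 535 with IL4 (log2 ratio -4.35). Scn3a was at 1.13 CPM with PF429424, 0.364 CPM with 25-HC, 0.857 CPM with 1,10-Phen and 24.9 CPM with IL4. Actb, beta-actin, had 111207 counts with PF429424 and 113986 with IL4 (log2 ratio 0.04).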

How the data were processed

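Total RNA, 1 ug per library, extracted with TRIzol, was sequenced in 6 libraries, 1 per treatment. The authors deposited an expected count per gene, an estimated count not scaled between libraries, per the file headers and values, of which 30.5% to 32.0% are not whole. The deposited FPKM values are, per the file headers, scaled by the authors for length and depth. HISAT2, Bowtie2, RSEM 1.2.12 and DESeq2 are named, without roles, in the submitters' processing notes. No source used here gives a strand setting, so overlapping and antisense genes cannot be told apart. Mitochondrially encoded genes are not analysed here, and some other genes are not reported here. The estimated counts were rounded and given TMM factors over the 6 libraries (edgeR 4.0.16, R 4.3.3). With 1 library a side the edgeR test cannot be run. Ratios carry exact Clopper-Pearson 95% counting intervals, and the procedure was tested on simulated data. The simulated counts held counting error only and no variation between cultures, so they cannot show how the calls hold against that variation. Positions and promoter windows are RefSeq on GRCm38.p6. Windows on chromosome 18 were left out of every motif count, also of those over all windows, and the windows used cover 9584 of 11908 genes compared.

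Members, the 54 gene lists and the naming rule were chosen with earlier results of these data known. The rule takes the 20 largest and 20 smallest ratios among genes with standard symbols that pass 50 counts and 5 CPM on either side. It adds 6 members of each list, the 15 genes with the most counts and the 15 with the widest CPM differences, the 15 furthest above and the 15 furthest below the other 5 libraries, and a fixed set of sterol, ATF4 and alternative activation genes. Not every such gene is printed. Other list members in the text, and the genes with an ER stress response element, were chosen after their values were seen. The alternatives were scaling by DESeq2 1.42.0 or by library totals, dropping the expression filter, a stricter minimum of 5 CPM, prior counts of 0.5 and 10, log2(FPKM + 1), and the median of the 5 other libraries as denominator. Python 3.11.15, numpy 2.4.6, pandas 2.3.3, SciPy 1.17.1 and matplotlib 3.10.9 did the rest.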

Additional observations from a re-analysis of the deposited data

How the results depend on the processing

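The main rule called 298 genes higher and 667 lower. With DESeq2 size factors it was 286 and 685, with no expression filter 339 and 809, with a prior count of 0.5 309 and 690, and with a prior count of 10 229 and 535. A minimum CPM of 5 gave 207 and 432, with log2(FPKM + 1) 95 and 397, and against the median of the 5 other libraries 111 and 237. Of the 965 calls, 315 remained in that last setting and 28 had the other sign. Hilpda (-0.12), Mt2 (-0.52) and Plk2 (-0.28) changed sign there, and the cause was not tested. Library totals moved the median over all genes to -0.11, left 19.9% of calls on the higher side in place of 30.9%, and turned the sign of 9 of 54 list medians, as did log2(FPKM + 1). The erythroid and megakaryocyte list had no member above that minimum. No paired analysis was possible because each treatment had 1 library. Leaving out a replicate was not possible for the same reason. Depth limits low genes: 3 counts correspond to 0.148 CPM with PF429424 and 0.140 CPM with IL4, and 139 of the higher and 298 of the lower calls had a mean CPM below 5.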

Other observations

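Genes of the circadian clock and of the aryl hydrocarbon receptor pathway showed patterns not described above. Among 17 clock genes, 2 were called higher and 3 lower with PF429424, and PF429424 was the lowest of the 6 libraries for 9. Bhlhe41, a repressor of the clock, was called higher at 1820 counts with PF429424 and 468 with IL4 (log2 ratio 2.03). Its relative Bhlhe40 had 9690 with PF429424 and 5196 with IL4 (log2 ratio 0.98) and was not called. The output factor Dbp had 13 counts with PF429424 and 87 with IL4 (log2 ratio -2.49), the repressor Nr1d1 27 with PF429424 and 84 with IL4 (log2 ratio -1.49) and Per3 55 with PF429424 and 156 with IL4 (log2 ratio -1.39), while the core activators Arntl (323 with PF429424 and 311 with IL4, log2 ratio 0.13) and Clock (log2 ratio 0.27) were not called. Ahr, the receptor itself, had 201 counts with PF429424 and 471 with IL4 (log2 ratio -1.14) and its repressor Ahrr 149 with PF429424 and 988 with IL4 (log2 ratio -2.63), whereas Tiparp, another target, had 1672 with PF429424 and 1374 with IL4 (log2 ratio 0.36). Ahrr was at 7.34 CPM with PF429424, 7.06 to 18.5 CPM with the other compounds and 46.0 CPM with IL4, so every compound library was below IL4. The labels give no time of day at harvest.

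Among p53 targets 1 was called higher and 2 lower of 19 compared, beside 2.50% and 5.60% of all genes. The list holds Plk2 at 8016 counts with PF429424 and 3957 with IL4 (log2 ratio 1.10), Trp53inp1 at 628 with PF429424 and 1763 with IL4 (log2 ratio -1.41) and Mdm2 at 6539 with PF429424 and 4907 with IL4 (log2 ratio 0.49). Of the metallothioneins, which bind zinc and copper, Mt2 had 124 counts with PF429424 and 42 with IL4 (log2 ratio 1.60) and Mt1 1482 with PF429424 and 1562 with IL4 (log2 ratio 0.004). Of 19 AP-1 and EGR factors, Fosl1 was called higher at 61 counts with PF429424 and 19 with IL4 (log2 ratio 1.66) and Ier3 lower with 779 with PF429424 and 1734 with IL4 (log2 ratio -1.07). Mitochondrial ribosomal proteins had a median of 0.25, with 34 of 78 at their highest of the 6 libraries with PF429424 and 1 called higher, Mrps18b (1150 counts with PF429424 and 591 with IL4, log2 ratio 1.04).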
